A study of Homo sapiens with 3 samples.

Results

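The genes described here are the transcriptional co-activators YAP1 (YAP) and WWTR1 (TAZ), the DNA-binding partner gene TEAD1, the target genes CYR61, CTGF and ANKRD1, the angiomotin genes AMOT, AMOTL1 and AMOTL2 and the kinase gene LATS2. They were chosen by gene symbol, with earlier results of these data known, and all 10 were listed among the 16793 symbols of the deposited tables. RNA was sequenced from H446 cells, an established line from human small cell lung cancer grown with serum. One group received vehicle, and the other groups received the small molecule 3-bromoascochlorin (BAS), the bromine-bearing analogue of ascochlorin, a product of fungi, at 5 µM or 10 µM; all were kept for 48 h. Each group had 1 library, 3 altogether, from 1 cell line, so nothing here was tested, and how far cultures vary among themselves is unknown.

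YAP and TAZ are paralogous proteins that carry signals on cell contact, shape and tension into the nucleus, where they bind TEAD factors and switch on genes such as CYR61, CTGF and ANKRD1. The Hippo kinase cascade holds them back: the kinases STK3 and STK4 activate LATS1 and LATS2, which phosphorylate YAP and TAZ and keep them in the cytoplasm. Angiomotins bind YAP and TAZ at junctions and on actin, and AMOTL2 and LATS2 are themselves target genes, which gives the pathway negative feedback. Neuroendocrine small cell lung cancers are known for low YAP1.

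TEAD factors recognise the letters GGAATG, and these were searched on both strands in the 250 bases before each RefSeq transcription start (GRCh38.p14). The table held entries for 8 of the 10 genes, in 10 windows, and none was printed for CYR61 and TEAD1. The CTGF window had 3 matches, ANKRD1 had 2, YAP1 had 1, and AMOTL2 had 1 before the second of its 2 listed starts. No match stood in the windows of WWTR1, AMOT, AMOTL1 and LATS2. Of 35116 windows of this length in the table, 11.9% held at least 1 match, 0.940% at least 2 and 0.0826% at least 3. The CTGF window is shown because it holds the most matches, and the other matches are shown in 30 bases each, 5′ to 3′ in the direction of the gene, with the TEAD letters or their reverse complement (CATTCC) in capitals.
CTGF, chr6:131951374-131951622, minus strand: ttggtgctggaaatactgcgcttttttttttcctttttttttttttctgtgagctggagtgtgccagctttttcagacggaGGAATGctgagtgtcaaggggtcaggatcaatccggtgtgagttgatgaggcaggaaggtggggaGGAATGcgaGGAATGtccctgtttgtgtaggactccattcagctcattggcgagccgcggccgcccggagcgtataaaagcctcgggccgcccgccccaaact
ANKRD1, chr10:90921290-90921319, minus strand: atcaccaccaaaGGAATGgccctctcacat
ANKRD1, chr10:90921198-90921227, minus strand: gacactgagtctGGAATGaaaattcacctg
AMOTL2, chr3:134374499-134374528, minus strand: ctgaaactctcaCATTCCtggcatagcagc
YAP1, chr11:102110273-102110302, plus strand: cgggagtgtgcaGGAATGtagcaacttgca

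In CTGF the matches began 169, 104 and 95 bases before the start, and in ANKRD1 220 and 128 bases before it. The AP-1 letters TGANTCA, searched with any base at N, do not overlap the TEAD letters. They occurred once among these windows, as TGATTCA in ANKRD1 195 bases before the start. The same search found a match in 6.57% of all windows of the table. The CArG box, which serum response factor binds, had 0 matches in them and stood in 1.16% of all windows. The 30 bases printed for the second ANKRD1 match and for the AMOTL2 match overlap an annotated UTR in GENCODE 29. The gene and strand of that UTR were not checked. These matches describe letters and not binding, and the expression files do not show which start the cells used.

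**Figure D1:**
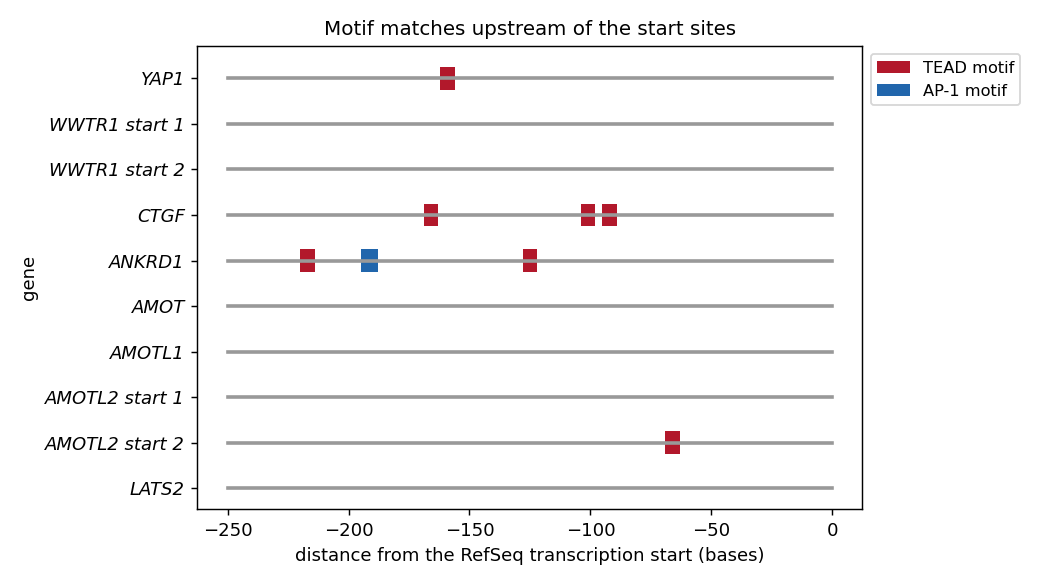
Matches to the TEAD letters (red) and the AP-1 letters (blue) along the 250 bases before each RefSeq start, plotted by distance from the start in bases, with 1 line per window. CTGF holds 3 TEAD matches, ANKRD1 2 and an AP-1 match, and YAP1 and the second AMOTL2 start 1 each.

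Levels are given in FPKM, fragments normalised to transcript length and to the mapped fragments of the library, a scale per length on which genes can be set beside each other, and in the order vehicle, 5 µM and 10 µM. The values summed to 487923 to 507342 FPKM per library. Comparisons used log2(FPKM + 1) in 11512 genes, those averaging 1 FPKM or more, and a gene is called 2-fold where this scale differed by at least 1, which understates the difference of a low gene. Folds are given as ratios of FPKM without a pseudocount. Low values of genes with a single RefSeq-matched coding transcript fell into steps, by which 1 read was worth 0.0519, 0.0509 and 0.0527 FPKM in a transcript of 1 kb, or about 19300000, 19600000 and 19000000 reads per library. This is an estimate: 50.5% to 52.3% of these values lay within 0.15 of a whole number of reads, where 30% would if they were spread evenly. The step was fitted to these same values, which by itself raises that share by an amount that was not measured.

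Of 7 neuroendocrine markers, 6 were listed and passed the filter, among them NEUROD1 (104.96, 93.15 and 91.62 FPKM), INSM1 (72.85, 81.79 and 95.14 FPKM) and NCAM1 (46.93, 60.14 and 65.84 FPKM). Others of these markers differed more from vehicle: UCHL1 (82.21, 131.19 and 176.51 FPKM) and CHGA (1.91, 4.0 and 6.41 FPKM) were both called 2-fold higher at 10 µM, and SYP was at 17.3, 12.77 and 13.25 FPKM. The sum of the 6 was 326.16, 383.04 and 448.77 FPKM. Of 5 non-neuroendocrine markers, 4 passed the filter and AXL did not. VIM was at 680.84, 643.05 and 605.21 FPKM, CD44 at 8.55, 10.82 and 15.02 FPKM and REST at 4.7, 4.46 and 4.83 FPKM. HES1, a Notch target, was at 10.74, 18.9 and 19.88 FPKM. Of the markers of other cells, CD68 from the leukocyte list (2.85, 6.05 and 7.34 FPKM) was called higher at 10 µM, beside PTPRC of that list at 0.92 to 1.09 FPKM. Below the filter, CD14 of that list was at 0.25, 0.1 and 0.07 FPKM and CSF1R at 0.01, 0.06 and 0.18 FPKM. The tuft-type marker POU2F3 was at 0.01 to 0.07 FPKM and the epithelial gene EPCAM at 0.03 to 0.24 FPKM. Of 7 fibroblast markers 3 passed the filter, and the sum of all 7 was 751.82, 934.36 and 924.93 FPKM. It came almost wholly from those 3, the collagen genes COL1A1, COL1A2 and COL3A1, while DCN, LUM and PDGFRA stayed at or below 0.65 FPKM and PDGFRB was at 0.86, 1.15 and 0.77 FPKM. The endothelial cadherin gene CDH5 was at 51.99 to 57.56 FPKM beside PECAM1 at 0.10 to 0.16 FPKM. In these bulk samples, a change in the share of cells and a change in RNA per cell cannot be told apart, and the part of these markers in the results was not tested.

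H446 cells held RNA of TAZ and almost none of YAP. The vehicle library gave 0.07 FPKM for YAP1, and both BAS libraries listed it at 0. By the read estimate, the vehicle value stands for 1.84 to 7.28 reads, depending on which annotated coding transcript, of 1.365 to 5.398 kb, was present. So few reads allow no fold, and the treated libraries cannot be placed above or below vehicle. WWTR1 stood at 33.75, 40.13 and 46.48 FPKM, above 85.5%, 87.6% and 89.2% of all genes. The treated values were 1.19-fold and 1.38-fold over vehicle and were not called 2-fold. On the log2 scale the WWTR1 difference of 0.45 at 10 µM was exceeded by 11.1% of the genes tested.

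Genes on either side of YAP1 on chromosome 11 were looked up after its value had been seen. Of the 5 protein-coding RefSeq genes on each side, 6 were listed in the files. On the far side of the adjacent gene BIRC3, not analysed here, the apoptosis inhibitor gene BIRC2 was at 6.16, 5.66 and 5.86 FPKM and the membrane protein gene TMEM123 at 36.09, 32.5 and 34.59 FPKM. On the other side, CFAP300, CEP126, ANGPTL5 and TRPC6 were each at or below 0.26 FPKM in every library. The listed genes on one side were low as well. BIRC2 and TMEM123 on the other were not, and BIRC3, MMP7 and MMP20 there had no value to compare. Whether position has any part in the level of YAP1 was not tested.

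**Figure D2:**
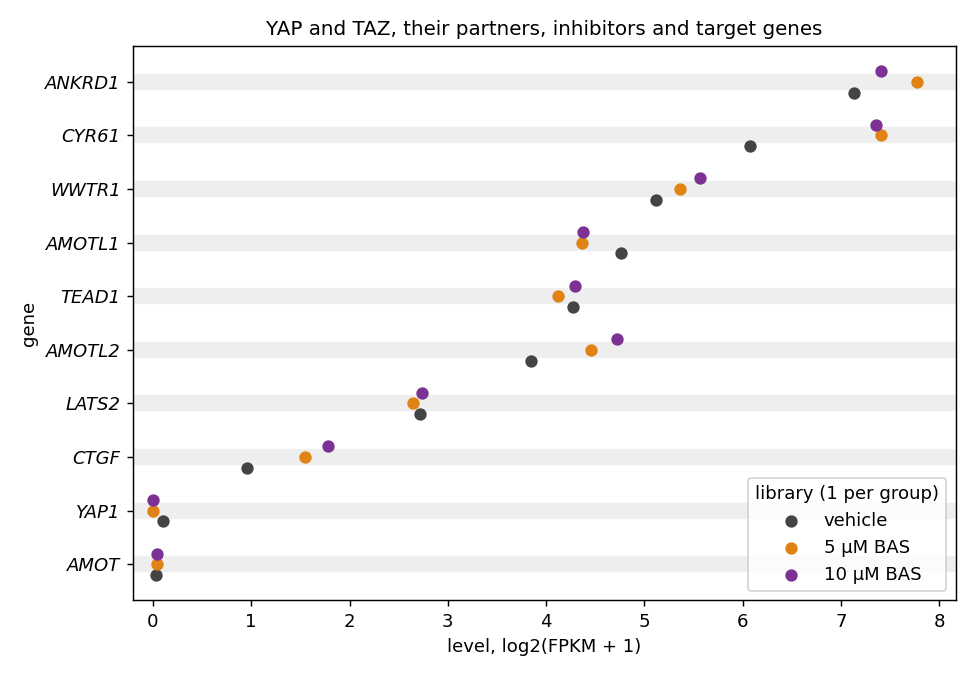
Level of each gene as log2(FPKM + 1) on the horizontal axis in the vehicle (grey), 5 µM BAS (orange) and 10 µM BAS (purple) library, 1 point per library and genes ordered by the vehicle value. YAP1 and AMOT lie at the bottom with at most 0.07 FPKM, WWTR1 lies at 33.75 FPKM or above, and the widest gap between vehicle and BAS is that of CYR61.

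By level in the vehicle library, the order was ANKRD1, CYR61, WWTR1, AMOTL1, TEAD1, AMOTL2, LATS2, CTGF, YAP1 and AMOT, running from 139.64 FPKM to 0.02 FPKM. With a single value per group, no spread separates neighbours in this order. Of the 10 genes, 8 passed the filter, and YAP1 and AMOT did not. Among the 8, CYR61 was called 2-fold higher at 5 µM, where 0.539% of all genes tested were called higher and 0.208% lower. The same count of 1, again CYR61, held at 10 µM, where 1.31% of all genes were called higher and 0.643% lower. None of the 8 was called lower at either dose. Between 10 µM and 5 µM, 0 of the 8 were called in either direction, beside 0.0869% of all genes. The median difference of the 8 was 0.42 at 5 µM and 0.36 at 10 µM, where that of all genes tested was 0.02 and 0.05. As the genes were chosen with earlier results of these data known, these medians are a description only. Both doses are set against the same vehicle library.

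Of the partners, TEAD1, one of the 4 factors that tether YAP and TAZ to DNA, was at 18.33, 16.37 and 18.58 FPKM. At 10 µM it was 1.01-fold over vehicle, a difference that turned negative with median-ratio scaling or quantile normalization. TEAD2 was the most abundant of the family at 59.09, 64.8 and 68.95 FPKM, or 52.7%, 52.8% and 55.0% of the summed TEAD level, and 3.22 to 3.96 times TEAD1 in each library. TEAD4 followed at 27.74, 32.86 and 29.02 FPKM, and TEAD3 was lowest at 6.9, 8.63 and 8.75 FPKM. The summed TEAD level was 112.06, 122.66 and 125.3 FPKM, so that the line carried RNA of all 4 factors with or without BAS. VGLL4, which competes with YAP and TAZ for TEAD, was at 21.54, 20.09 and 21.73 FPKM, and VGLL3 was at or below 0.05 FPKM. Among the 5 TEAD and VGLL genes past the filter, 0 were called, beside 0.747% of all genes at 5 µM and 1.95% at 10 µM. Their median was 0.13 at 5 µM and 0.06 at 10 µM, the latter below 0 with quantile normalization.

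The 3 target genes stood at far apart levels, each was above vehicle in both BAS libraries, and CYR61 alone was called 2-fold. CYR61 (CCN1), a secreted matrix protein that binds integrins, stood at 66.56 FPKM in the vehicle library and at 168.90 and 162.78 FPKM in the BAS libraries. Both BAS libraries lay above vehicle, at 2.54-fold and 2.45-fold, and 10 µM minus 5 µM was -0.05 on the log2 scale. Among the genes tested, 0.243% stood higher by difference from vehicle at 5 µM and 0.573% at 10 µM, which placed CYR61 in rank 29 and rank 67 of 11512. An estimated 2938 reads lay behind its vehicle value, so counting noise is small beside this difference. The variation between cultures was not measured.

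CTGF (CCN2), the relative of CYR61 that is the most widely used readout of YAP and TAZ, was low in these cells, at 0.94, 1.93 and 2.44 FPKM. Its vehicle value lay below 1 FPKM, so it passed the filter only through the BAS libraries, and its folds and interval are a description. The BAS values were 2.05-fold and 2.60-fold over vehicle. On the scale with a pseudocount of 1 these came to 0.59 and 0.83 and were not called, while with a pseudocount of 0.5 or 0.1 the 10 µM difference was 1.03 or 1.29 and was called. About 42, 89 and 108 reads stood behind these values. The gap between the BAS libraries thus rests on about 89 and 108 reads. No interval was computed for it, so no order by dose is read from it. If that estimate holds, the exact binomial 95% interval of the ratio to vehicle is 1.42 to 3.08 at 5 µM and 1.81 to 3.82 at 10 µM, which covers counting error only. CYR61 exceeded CTGF by 70.8, 87.5 and 66.7 times, so the pair differed far more in level than in fold over vehicle.

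ANKRD1, an ankyrin repeat protein known from stressed heart muscle, was the most abundant of the 10 genes in every library, at 139.64, 218.33 and 169.01 FPKM. It stood above 97.1%, 98.4% and 97.8% of all genes. The 5 µM library was highest, at 1.56-fold over vehicle, and the 10 µM library lay between, at 1.21-fold. On the log2 scale the differences from vehicle were 0.64 and 0.27, and that of 10 µM from 5 µM was -0.37. By difference from vehicle, 2.25% of the genes tested stood higher than ANKRD1 at 5 µM and 23.0% at 10 µM. The ratio of ANKRD1 to CYR61 was 2.10 with vehicle, 1.29 at 5 µM, where both were higher and CYR61 by more, and 1.04 at 10 µM, where ANKRD1 was lower than at 5 µM. ANKRD1 was highest at 5 µM and CTGF at 10 µM, the latter by a gap that rests on few reads.

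**Figure D3:**
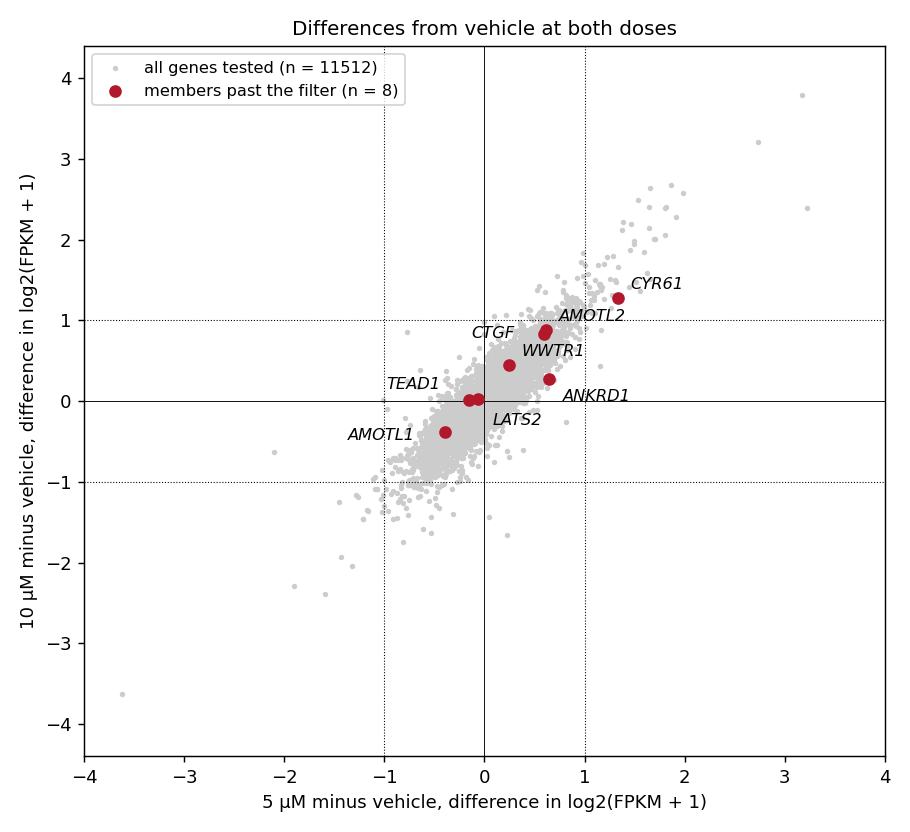
Difference from vehicle in log2(FPKM + 1) at 5 µM (horizontal) and 10 µM (vertical) for the 11512 genes tested (grey) and the 8 genes past the filter (red), with dotted lines at the 2-fold limit of 1. CYR61 lies past the limit on both axes, CTGF and AMOTL2 lie together below it, ANKRD1 lies higher at 5 µM than at 10 µM, and AMOTL1 lies below 0 on both axes.

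In both BAS libraries AMOTL2 lay above vehicle and AMOTL1 below, each short of the 2-fold limit. AMOTL2, an angiomotin that is also a target gene, was at 13.36, 20.96 and 25.43 FPKM, or 1.57-fold and 1.90-fold over vehicle. Its log2 differences of 0.61 and 0.88 stayed under the limit, with 2.62% and 1.88% of the genes tested above them. AMOTL1 was at 26.09, 19.64 and 19.72 FPKM, and both BAS libraries lay below vehicle, at 0.75 and 0.76 times its level. That difference of -0.39 at each dose was not called, and 5.59% and 8.43% of the genes tested lay lower. The ratio of AMOTL2 to AMOTL1 was 0.51 with vehicle, 1.07 at 5 µM and 1.29 at 10 µM. By these values AMOTL1 was the higher of the pair with vehicle and AMOTL2 at 10 µM. At 5 µM the ratio was close to 1, and with 1 library per group the pair cannot be ordered there. AMOT, the founding member on the X chromosome, was at 0.02, 0.03 and 0.03 FPKM, an estimated 2.66 to 4.31 reads, and no difference was detectable at this depth. Summed over the 3 genes, the angiomotin level was 39.47, 40.63 and 45.18 FPKM.

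LATS2, the kinase that phosphorylates YAP and TAZ and is itself a target gene, was at 5.56, 5.27 and 5.66 FPKM. Its libraries lay within 0.95-fold to 1.02-fold of vehicle, and the sign at 10 µM depended on the scaling. LATS1 was at a like level, 5.69, 4.88 and 6.13 FPKM. The feedback genes AMOTL2 and LATS2 thus stood at 1.90-fold and 1.02-fold over vehicle at 10 µM.

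A wider list of 22 genes used as YAP and TAZ targets holds 5 of the genes above. Of the 22, 16 passed the filter. Called 2-fold higher at both doses were 2 of these, CYR61 and GADD45A, beside 0.539% of all genes at 5 µM and 1.31% at 10 µM. None was called lower. GADD45A, a growth arrest gene that stress pathways also induce, was at 34.29, 73.31 and 88.63 FPKM, or 2.14-fold and 2.58-fold over vehicle. At a 1.5-fold limit, 5 of 16 were higher at 5 µM, beside 3.01% of all genes, and 4 of 16 at 10 µM, beside 6.04%. The 16 had median differences of 0.03 and 0.13 at the 2 doses, where all genes had 0.02 and 0.05. The 5 µM median turned below 0 with the filter at 5 FPKM or with libraries rescaled to a common total. Without the 5 genes described above, the 11 others had medians of -0.04 and 0.06, with 5 above vehicle and 6 below at 5 µM and 8 above and 3 below at 10 µM.

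Of the 11, GADD45A alone was past the 1.5-fold limit, at both doses. The tissue factor gene F3, which starts blood clotting, was at 3.15, 3.85 and 4.49 FPKM, and PTPN14, a phosphatase that restrains YAP, was at 8.92, 7.05 and 6.76 FPKM. The membrane repair gene MYOF was at 13.83, 14.24 and 14.7 FPKM. The other 6 of the 22 did not reach a mean of 1 FPKM. These included the receptor tyrosine kinase gene AXL at 0.17, 0.14 and 0.26 FPKM, NT5E, which encodes the ectoenzyme CD73, at 0.03 FPKM with vehicle and listed at 0 with BAS, and IGFBP3, a binding protein of insulin-like growth factors, at 0.02, 0.13 and 0.23 FPKM. ANKRD1, CYR61 and GADD45A held the top 3 places of the list in each library. Next in the vehicle library came FJX1, at 28.42, 25.98 and 29.68 FPKM, and CRIM1, at 26.72, 23.35 and 22.47 FPKM.

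**Figure D4:**
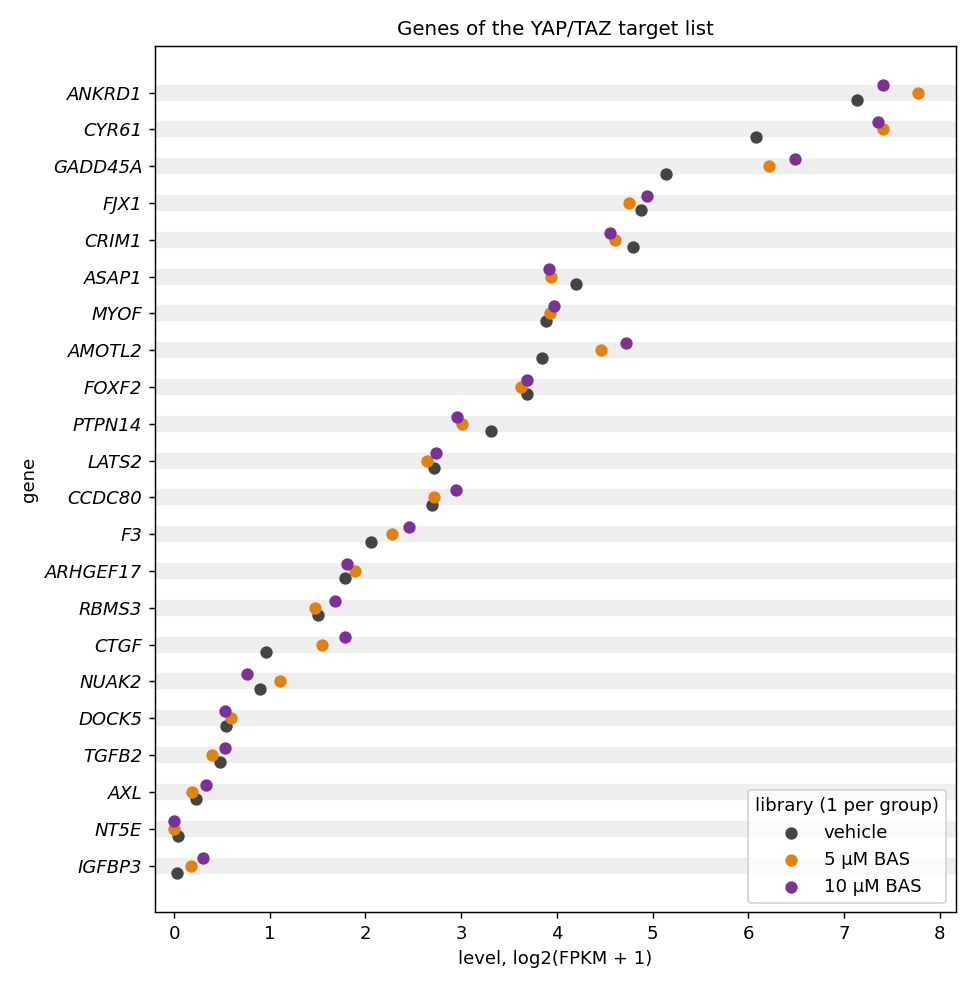
Level of the 22 listed target genes as log2(FPKM + 1) in the vehicle (grey), 5 µM BAS (orange) and 10 µM BAS (purple) library, 1 point per library, ordered by the vehicle value. ANKRD1, CYR61 and GADD45A lie highest, the lowest 6 genes stay at or below 1.16 FPKM, and CYR61 and GADD45A show the widest gaps between vehicle and BAS.

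Within the CCN family of matrix proteins, to which CYR61 and CTGF belong, NOV (CCN3) was at 1.99, 4.1 and 5.94 FPKM, or 2.06-fold and 2.98-fold over vehicle, and was called at 10 µM with a difference of 1.21. WISP1 (CCN4) was at 1.19, 1.24 and 1.12 FPKM, and WISP2 (CCN5) did not pass the filter. Of the 4 family members past the filter, 1 was called higher at 5 µM, beside 0.539% of all genes, and 2 at 10 µM, beside 1.31%. These counts include CYR61, already described above. Without CYR61 and CTGF, 2 members were left, NOV and WISP1, with 0 called at 5 µM and 1, NOV, at 10 µM. The medians of those 2 were 0.40 and 0.58. Among these 4, CYR61, CTGF and NOV were each at least 2.05-fold over vehicle in plain ratio at both doses, and WISP1 was not. WISP2, below the filter, had higher plain ratios of 9.50 and 8.50, from 0.04, 0.38 and 0.34 FPKM.

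The Hippo kinases and adaptors leaned below vehicle without a called gene, beside 0.747% of all genes called at 5 µM and 1.95% at 10 µM. Of 18 past the filter, 15 lay under vehicle at 5 µM and 13 did so at 10 µM, where 46.6% and 43.3% of all genes tested were below. The medians were -0.23 and -0.24 and stayed below 0 under every setting tried. FRMD6, a FERM domain protein upstream of the cascade, was at 82.26, 52.07 and 51.05 FPKM, and TAOK1, a kinase that activates STK3 and STK4, was at 12.59, 7.75 and 7.96 FPKM. These 2 genes were past a 1.5-fold limit at both doses, where 1.6% of all genes were lower at 5 µM and 3.44% at 10 µM. TAOK2, its relative, was at 13.92, 11.31 and 10.23 FPKM. The core kinase gene STK3 was at 8.2, 6.69 and 6.11 FPKM and STK4 at 10.15, 9.39 and 9.53 FPKM, while the scaffold gene SAV1 was at 10.02, 11.42 and 12.15 FPKM.

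Among 14 junction and polarity genes past the filter, 0 were called, beside 0.747% of all genes at 5 µM and 1.95% at 10 µM. Their median was -0.11 at 5 µM and -0.03 at 10 µM. AJUBA, a LIM protein that binds and inhibits LATS kinases, was at 18.36, 31.25 and 29.14 FPKM, or 1.70-fold and 1.59-fold over vehicle. Its relative LIMD1 was at 7.2, 6.02 and 5.87 FPKM, and the polarity gene PARD3 at 9.19, 11.54 and 11.34 FPKM. AJUBA and AMOTL2 were the 2 genes of this list past the 1.5-fold limit, both higher at both doses, beside 3.01% of all genes at 5 µM and 6.04% at 10 µM.

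CYR61 and CTGF are also known targets of serum response factor, which answers to actin through the co-activators MRTFA and MRTFB. Of 15 genes of this list past the filter, 8 were above vehicle and 7 below at each dose. Of all genes, 53.2% and 56.5% were above. None of the 15 was called 2-fold, beside 0.747% of all genes at 5 µM and 1.95% at 10 µM. Their median was 0.08 at 5 µM and 0.00 at 10 µM. Past the 1.5-fold limit at 10 µM were 5, all higher, beside 6.04% of all genes higher and 3.44% lower. Calponin (CNN1), a marker of contractile cells, was at 0.96, 1.99 and 2.71 FPKM, and like CTGF passed the filter only through the BAS libraries. Transgelin (TAGLN) was at 1.51, 2.22 and 3.68 FPKM and tropomyosin (TPM1) at 104.29, 157.18 and 170.31 FPKM. The actin genes ACTB, at 2359.84, 2237.55 and 2086.16 FPKM, and ACTG1, at 709.57, 695.84 and 708.85 FPKM, were not above vehicle.

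**Figure D5:**
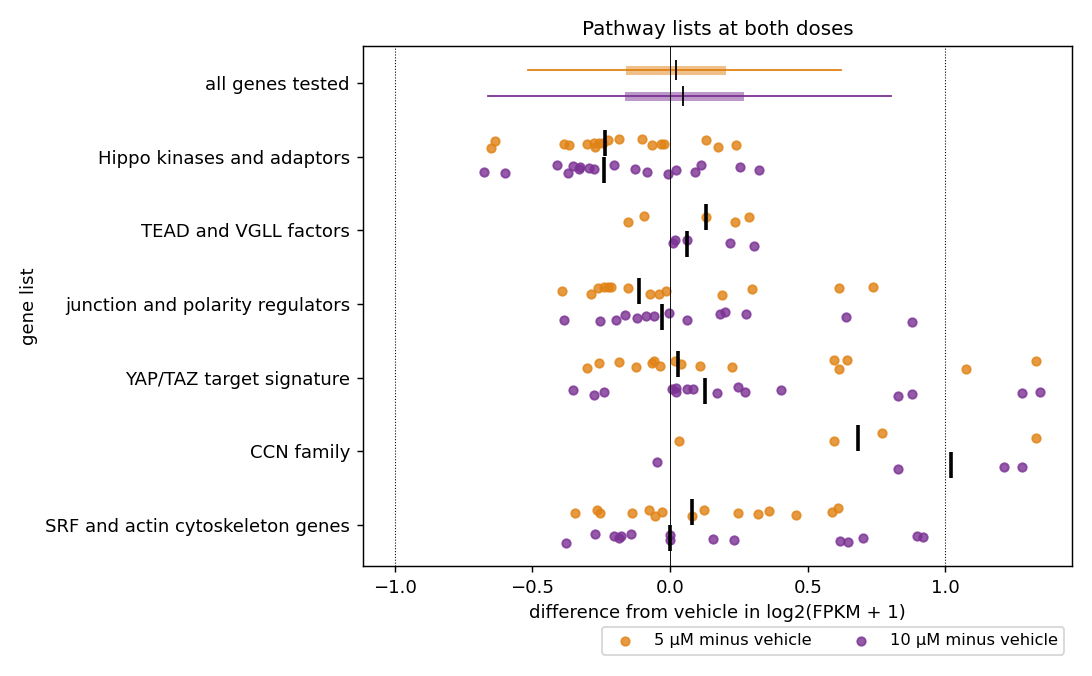
Difference from vehicle in log2(FPKM + 1) for each gene past the filter in 6 lists, at 5 µM (orange) and 10 µM (purple), with black bars at the medians and dotted lines at the 2-fold limit. For all genes tested the thin line spans the central 95% and the thick line the central 50%. The Hippo list has medians of -0.23 and -0.24. The CCN family, with 4 genes that include CYR61 and CTGF, has medians of 0.68 and 1.02.

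Genes whose pair of differences from vehicle lay closest to that of CYR61 were sought among all genes tested, over the 3 libraries, by Euclidean distance on the log2 scale. The closest 5 were IFI35, PCK2, UCN, INHBE and AGT, at distances of 0.06 to 0.19. These were chosen for that closeness, so their values are a description. PCK2, the mitochondrial enzyme that makes phosphoenolpyruvate, was at 29.49, 68.99 and 72.2 FPKM, and INHBE, a hormone subunit of the activin family, was at 29.64, 82.16 and 80.5 FPKM. The interferon-induced gene IFI35 was at 1.97, 6.19 and 6.37 FPKM, the angiotensinogen gene AGT at 3.13, 8.27 and 9.73 FPKM and the neuropeptide gene UCN at 0.78, 3.29 and 2.95 FPKM. The pattern rests on 2 differences that share the vehicle library.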

How the data were processed

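RNA-seq libraries of H446 cells (single-end, 50 bases) were measured in 3 groups with 1 library each. Gene values were deposited as FPKM by the authors, per the file headers, under titles that say RPKM. The submitters' processing notes name the build hg19 and the tools Cufflinks, Cuffdiff, Bowtie2, BWA and Trim Galore; what each did, the annotation and the strand are not given in the sources used. Column headers of both BAS files hold codes that do not spell out the dose, so each dose was taken from the sample label of its file.

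Rows of a repeated symbol were summed, which touched 0 of the genes named here. With 1 library per group, log2(FPKM + 1) was compared for 11512 genes, those averaging 1 FPKM or more, and a difference of at least 1 was called. The log2 comparison and the library scalings were run on simulated data without noise, which checks the arithmetic only. The read estimate, the interval and the motif search were not run on simulated data. The genes and the 6 lists were chosen with earlier results of these data known. Named genes are the 10 genes, TEAD1 to TEAD4, up to 3 further genes per list, by size of difference at 10 µM, and the 5 genes nearest to CYR61; others were named after their values were seen. The list symbols MKL1, MKL2 and INADL were matched as MRTFA, MRTFB and PATJ through RefSeq synonyms.

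Depth was estimated from steps in low values of 400 to 1500-base transcripts in GENCODE 29, matched by symbol, and intervals cover counting error only. In GENCODE 29, exons of YAP1, WWTR1, CTGF and AMOTL1 overlap a gene on the other strand, and without strand such reads cannot be told apart. At most 8.98% of the 50-base sequences of any of the 10 genes (WWTR1) occurred in another gene. Promoter windows are RefSeq sequences (GRCh38.p14), and the expression files hold no coordinates. Alternatives were pseudocounts, filters, scalings and fold limits. Software was scipy 1.17.1, pandas 2.3.3, numpy 2.4.6 and matplotlib 3.10.9 under Python 3.11.15.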

Additional observations from a re-analysis of the deposited data

How the results depend on the processing

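With 1 library per group no library could be left out, and no paired analysis was possible because the groups hold 1 library each. CYR61 stayed called at both doses under every pseudocount, filter and scaling tried and at the 1.5-fold limit, and was not called at the 4-fold limit. At the 1.5-fold limit the members called higher were 4 at 5 µM and 3 at 10 µM, and at the 4-fold limit 0 and 0. At 10 µM they were 2 with a pseudocount of 0.1 or 0.5. The 1.5-fold limit called 2 and 2 Hippo genes, 2 and 2 junction genes, 5 and 4 target genes and 2 and 5 genes of the serum response factor list at 5 and 10 µM, and 3 CCN genes at 5 µM. The 4-fold limit called 0 target genes and 0 CCN genes at each dose. With a pseudocount of 0.1, 2 CCN genes were called at 5 µM. At 10 µM, 2 genes of the serum response factor list were called with 0.1 or 0.5, and 1 CCN gene with the filter at 5 FPKM.

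The CCN median at 5 µM was 0.99 with a pseudocount of 0.1, 0.82 with 0.5 and 1.33 with the filter at 5 FPKM, which leaves CYR61 alone. At 10 µM it was 1.29, 1.16 and 1.28, and 0.83 with no filter. The Hippo median at 10 µM was -0.13 with no filter. The share of all genes called was 1.70% at 5 µM and 3.63% at 10 µM with a pseudocount of 0.1, 4.60% and 9.48% at the 1.5-fold limit, and 0.0434% and 0.191% at the 4-fold limit. Between doses it was 0.356% with a pseudocount of 0.1, 0.235% with 0.5, 0.0458% with the filter at 5 FPKM, 0.843% at the 1.5-fold limit and 0% at the 4-fold limit. Depth limits YAP1 and AMOT, whose values stand for a few reads, and no setting measures how cultures vary.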
